A study of Homo sapiens with 14 samples.

Results

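HES1, HES4, HES5, HEY1, HEY2, NRARP and DTX1 are the genes most often read as the output of NOTCH signalling. These 7 genes were chosen by symbol, and all 7 were found among the 55075 genes of each deposited table. They were followed in 2 human T cell acute lymphoblastic leukaemia lines, CUTLL1 and CEM, that had been infected with retroviruses carrying a short hairpin RNA. The hairpin shJMJD3 targets JMJD3 (gene KDM6B), shUTX targets UTX (gene KDM6A), and shRenilla targets a luciferase that human cells lack and served as the control. JMJD3 and UTX are related enzymes that remove the repressive methyl mark from lysine 27 of histone H3, and the series asks how their roles in this leukaemia contrast. All cells grew in suspension in RPMI, every group carries a retroviral hairpin, and no uninfected cells were analysed here. The labels list 3 samples for CUTLL1 shJMJD3, 2 for CUTLL1 shUTX, 3 for CUTLL1 shRenilla and 2 for each CEM group, 14 in all, but the deposited count tables hold 1 pooled column per hairpin and line, so the spread between samples cannot be seen.

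NOTCH receptors are cut when a neighbouring cell presents a ligand, and the freed intracellular part enters the nucleus, binds the DNA-binding protein RBPJ and a Mastermind coactivator, and switches on target genes. HES and HEY genes encode basic helix-loop-helix repressors, NRARP encodes a small ankyrin-repeat protein that dampens the NOTCH complex, and DTX1 encodes a Deltex E3 ubiquitin ligase that modulates NOTCH. Activating NOTCH1 lesions are common in T cell acute lymphoblastic leukaemia, and CUTLL1 is known for a translocation that joins NOTCH1 to the T cell receptor beta locus. In bulk RNA, fewer cells that express a gene and less of its RNA per cell cannot be told apart.

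RBPJ binds DNA at a short motif, so the promoters were searched for its letters. RefSeq (GRCh38.p14) gave a promoter window for 5 of the 7 members, and DTX1 and HEY1 had none in the table used. The search covered the 250 bases before the start site on both strands for TGGGAA, the core of the textbook RBPJ motif, and for the longer GTGGGAA, which contains it. Of the 5 windows, 4 held both: HES1, HES4, HES5 and HEY2. Among 35116 RefSeq windows of the same length, 20.8% held the core and 5.43% held the longer form. The windows are printed for 2 members whose letters lie close to the start site (HES1 and HES4), for the one with a copy on each strand (HES5) and for the member without the letters (NRARP). Each is written 5′ to 3′ on the gene's own strand and ends at the base before the start site, with the core, on either strand, in capitals.
HES1, chr3:194135898-194136147, plus strand: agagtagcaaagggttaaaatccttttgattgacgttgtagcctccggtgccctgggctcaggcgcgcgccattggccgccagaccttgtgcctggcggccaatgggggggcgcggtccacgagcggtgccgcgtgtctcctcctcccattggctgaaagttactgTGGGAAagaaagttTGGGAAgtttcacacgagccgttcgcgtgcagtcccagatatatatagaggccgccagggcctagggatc
HES4, chr1:1000098-1000347, minus strand: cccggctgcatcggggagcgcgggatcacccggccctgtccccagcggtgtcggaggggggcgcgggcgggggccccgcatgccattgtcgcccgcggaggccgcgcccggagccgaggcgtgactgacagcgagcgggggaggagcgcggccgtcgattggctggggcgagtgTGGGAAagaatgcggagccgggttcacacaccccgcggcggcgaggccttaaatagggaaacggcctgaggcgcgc
HES5, chr1:2530264-2530513, minus strand: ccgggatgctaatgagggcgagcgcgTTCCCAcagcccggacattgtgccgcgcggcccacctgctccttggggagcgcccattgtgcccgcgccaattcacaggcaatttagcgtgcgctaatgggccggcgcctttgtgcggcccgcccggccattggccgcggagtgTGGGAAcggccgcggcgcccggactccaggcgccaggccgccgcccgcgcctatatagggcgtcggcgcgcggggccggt
NRARP, chr9:137302272-137302521, minus strand: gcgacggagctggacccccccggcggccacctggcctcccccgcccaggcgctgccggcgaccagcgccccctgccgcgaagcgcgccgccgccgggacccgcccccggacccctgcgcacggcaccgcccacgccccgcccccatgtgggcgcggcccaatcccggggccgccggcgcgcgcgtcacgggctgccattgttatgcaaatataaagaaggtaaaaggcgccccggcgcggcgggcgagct
The longer form begins 85 bases before the start site in HES1, 77 in HES4 and 81 in HES5. HES1 has a second core beginning 70 bases before its start site, and HES5 has the letters again, on the other strand, 224 bases before it. In HEY2 the letters lie 213 bases before the start site, on the other strand. A match is a run of letters and not a binding site, and the deposited data hold no binding measurement.

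The columns held between 70280185 and 258014046 counts. For CUTLL1 shRenilla, the table that pairs it with shJMJD3 holds a larger column of 258014046 counts and the table that pairs it with shUTX a smaller one of 144394369 counts. No gene had fewer counts in the larger column (30048 of 55075 had more and 25027 the same number), so the remainder of 113619677 counts was treated as the other part of the control. The RNA content of the columns also differed. Protein-coding genes took 60.0% to 81.8% of counts in the CUTLL1 columns against 93.0% to 94.1% in CEM, and small RNA genes took 1.97% to 18.7% in CUTLL1 and at most 0.0486% in CEM. Libraries were made from poly-A+ or Ribominus RNA, and the sources used here do not give which sample had which, so RNA selection and cell line cannot be told apart. All 12 T lineage markers examined reached 1 CPM (counts-per-million of the column total) in every column, with a sum of 2661 to 4803 CPM. The 6 B lineage markers summed to 56.1 to 88.8 CPM in CEM and 0.704 to 4.21 in CUTLL1, with MS4A1 at 0 counts in every column. The 6 myeloid markers summed to 22.9 CPM in CEM shJMJD3 against 6.59 and 5.75 in the other CEM columns, and to 4.31 to 17.4 in CUTLL1. The NK (5), erythroid (4) and stroma (5) markers summed to at most 34.0, 1.71 and 9.70 CPM. The part of any of these in the member values was not tested. Both targets were lower under their hairpins. With TMM scaling, which sets the ratio of the typical gene near 1, KDM6B under shJMJD3 had a log2 ratio to shRenilla of -0.63 in CUTLL1 and -1.67 in CEM, and KDM6A under shUTX one of -1.12 and -1.37.

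The clearest feature of the 7 effectors was the line they were read in. In the CUTLL1 control, DTX1 (351 CPM), HES4 (289) and NRARP (196.7) led, whereas in the CEM control HES1 (98.6) did and NRARP was at 0.230. With the 3 hairpin columns of each line as its replicates, 6 of 7 members were higher in CUTLL1 at an adjusted p under 0.05 (edgeR quasi-likelihood test, hairpin as block, Benjamini-Hochberg over 24003 genes). Of all genes tested, 19.0% were higher in CUTLL1 (4559) and 17.8% lower (4276). With scaling to column totals that split became 3501 higher and 5883 lower. The 3 columns of a line carry different hairpins, so these p-values do not cover variation between cultures of a line.

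NRARP had the smallest adjusted p of the 7. It had 196.7 CPM in CUTLL1 shRenilla (larger column), 138 under shUTX and 74.6 under shJMJD3, but only 24, 27 and 13 counts in the CEM columns, or 0.230, 0.381 and 0.185 CPM. The 2 lines did not overlap, and the log2 difference was 9.29 (SE 0.41, adjusted p 0.000877 by edgeR's quasi-likelihood test). On the summed columns this was 558-fold, with a 95% counting interval of 437 to 725.

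HES5 was close to silent in CEM. It had 12.8 CPM under shRenilla, 9.99 under shUTX and 5.01 under shJMJD3 in CUTLL1, against 0, 0 and 2 counts in CEM. Those 0 counts allow up to 0.0288 CPM under shRenilla and 0.0424 CPM under shUTX. The ratio of the summed columns was 1190-fold with a counting interval of 329 to 9833, and the adjusted p was 0.00504 (edgeR quasi-likelihood test). Such a ratio over 2 counts has a firm lower side only.

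In CUTLL1 the HEY repressors were the least abundant members. HEY1 had 7.89, 8.08 and 3.59 CPM under shRenilla, shUTX and shJMJD3 in CUTLL1, and 8, 1 and 11 counts in CEM, an 80.0-fold difference of the summed columns (counting interval 51.7 to 131, edgeR adjusted p 0.00963). HEY2 had 143, 47 and 56 counts in the same CUTLL1 columns and 0, 3 and 2 in CEM (22.6-fold, 9.55 to 70.2, edgeR adjusted p 0.0238). Both therefore sat near the counting limit in CEM, and no hairpin comparison of HEY1, HEY2, HES5 or NRARP was read there. Whether the authors counted by strand is not stated in what was used here, so reads of any antisense transcript overlapping a member cannot be told apart from its own.

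HES4 and DTX1 were expressed in both lines and were higher in CUTLL1. HES4 had 289, 313 and 165 CPM under shRenilla, shUTX and shJMJD3 in CUTLL1 and 8.68, 11.1 and 16.2 CPM in CEM, a log2 difference of 4.73 (SE 0.47, edgeR adjusted p 0.00395). DTX1 had 351, 281 and 234 CPM in CUTLL1 and 15.3, 13.7 and 35.7 CPM in CEM, a log2 difference of 4.19 (SE 0.49, edgeR adjusted p 0.00569). For both genes the lowest CUTLL1 column was above the highest CEM column.

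HES1 was the exception. It had 54.5, 87.1 and 55.7 CPM in CUTLL1 and 98.6, 94.9 and 222 CPM in CEM, so by column totals every CEM column was above every CUTLL1 column. On the TMM scale of the test the lines overlapped, with CUTLL1 shUTX (0.03 around the mean of HES1, log2) above CEM shUTX (-0.14) and CEM shRenilla (-0.16). The log2 difference of CUTLL1 against CEM was -0.68 (SE 0.40), which did not pass the test (edgeR adjusted p 0.234). HES1, the classical NOTCH target of the family, was thus the only one of the 7 not called higher in CUTLL1 by this test.

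**Figure D1:**
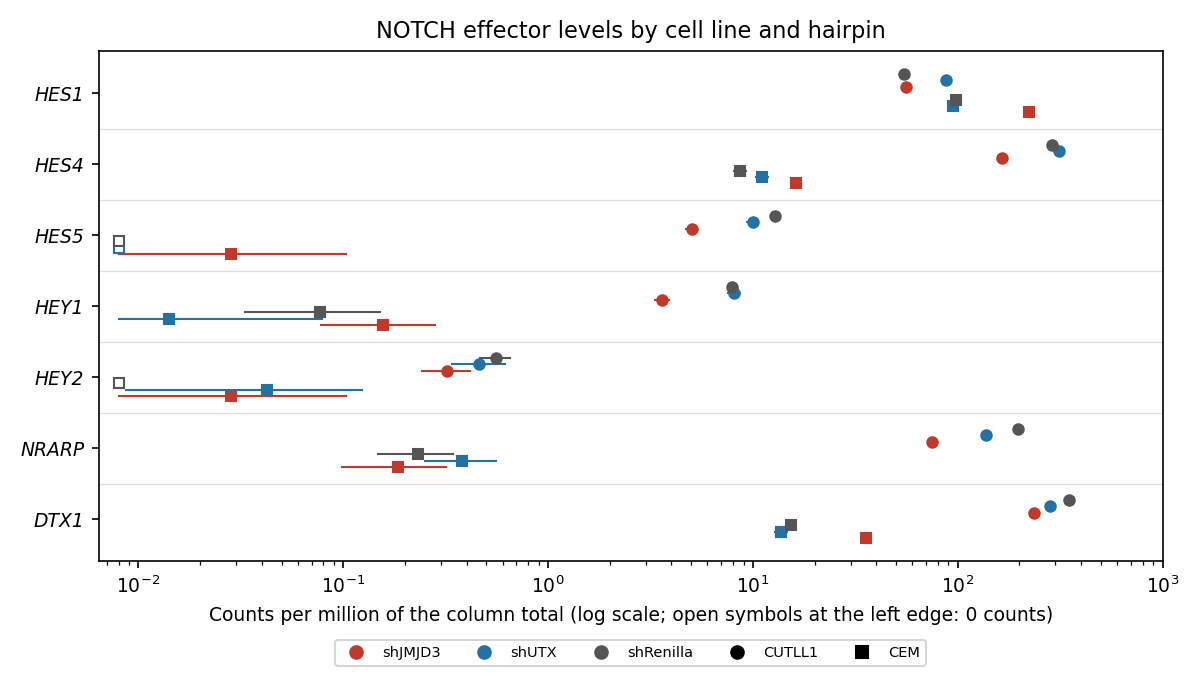
CPM of the column total for the 7 effectors on a log axis, 1 point per pooled column (colour: hairpin, circles: CUTLL1 with its larger control column, squares: CEM), with 95% Poisson intervals for counting error that are clipped at the left edge, where open symbols stand for 0 counts. By column totals HES1 is the only gene whose CEM points all lie to the right of its CUTLL1 points, and NRARP and HES5 show the widest gaps between lines.

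Levels of different genes were compared per kilobase of exon, with the median and range of the 3 columns of a line. In CUTLL1 the order was HES4 (median 258 CPM per kb), NRARP (77.9), DTX1 (64.1), HES1 (27.0), HES5 (7.65), HEY1 (2.44) and HEY2 (0.168). NRARP ranged from 42.1 to 111 and DTX1 from 53.4 to 79.9 CPM per kb, so these neighbours overlapped. HES1, at 26.4 to 42.3, just met the lowest NRARP value, while HES4, HES5, HEY1 and HEY2 each stood clear of their neighbours. In CEM the order was HES1 (47.8 CPM per kb), HES4 (9.89), DTX1 (3.49), NRARP (0.130), HEY1 (0.0238), HEY2 (0.0104) and HES5 (0). HES1 led there by a wide margin, HES4 (7.76 to 14.5) and DTX1 (3.13 to 8.13) overlapped, and the last 3 genes rested on 11 counts or fewer per column.

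Genes of the wider pathway were called in both directions between the lines. Of all 24003 genes in that test, 19.0% were higher in CUTLL1 and 17.8% lower. No list was tested against these shares. The same edgeR test called 3 of 4 NOTCH receptors higher in CUTLL1 and 0 lower, among them NOTCH3 (log2 difference 3.31, SE 0.27, adjusted p 0.00266) and NOTCH1 (1.34, SE 0.20, adjusted p 0.0105). Of the T cell NOTCH targets outside the 7, 7 of 15 were higher and 4 lower, and MYC, a growth-driving transcription factor and direct NOTCH1 target, had a log2 difference of 1.07 (SE 0.20, adjusted p 0.0177). Of 12 corepressors, which join RBPJ or HES proteins to silence genes, 10 were lower in CUTLL1 and 1 higher. In the nuclear NOTCH complex 0 of 7 were higher and 2 lower, and RBPJ itself was at -0.74 (SE 0.38, adjusted p 0.178). Of the other HES, HEY and DTX genes 7 of 10 could be tested, with 2 higher and 2 lower, and of the ligands 5 of 6, with 2 higher and 1 lower. Receptor processing and glycosylation genes gave 1 higher and 2 lower of 13, and turnover and trafficking genes 1 higher and 2 lower of 9. The median log2 difference was 4.73 over the members, 1.42 over the receptors and 0.55 over the T cell targets.

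In CUTLL1, the effectors were mostly lower under shJMJD3 than under the control. Against the larger control column with which the authors paired it, 5 of 7 members (HES4, HES5, HEY1, HEY2 and NRARP) were at least 1.5-fold lower and 0 were higher. Among 19772 genes with at least 50 counts in either column, 7.23% were that much lower and 8.63% higher. Against the remainder of the control alone, 2 members (HES5 at -1.17 and NRARP at -1.59) were that much lower and HES1 was higher, at 0.84. These ratios compare single pooled columns, so they have no test, and their 95% intervals cover counting error only. The median log2 ratio was -0.66 over the members and 0.00 over all genes measured, and over the members it was -0.86 against the smaller control column and -0.27 against the remainder. Column totals as the scale shift every shJMJD3 ratio to shRenilla by -0.15 in CUTLL1 and -0.31 in CEM.

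NRARP had the lowest ratio of the 7, with 50755 counts in the larger control and 13001 under shJMJD3, or 196.7 and 74.6 CPM, a log2 ratio of -1.25 (-1.27 to -1.22). HES5 went from 12.8 to 5.01 CPM, a log2 ratio of -1.19 (-1.30 to -1.09). HEY1 went from 7.89 to 3.59 CPM, at -0.98 (-1.12 to -0.85). The negative regulator and these repressors were therefore at 0.422 to 0.506 of their control level on this scale. HES4 had a ratio of -0.66 (-0.68 to -0.64), and HEY2, on 56 against 143 counts, one of -0.62 with a wide interval of -1.11 to -0.18. DTX1 was lower by less than 1.5-fold, at -0.43 (-0.44 to -0.41), and HES1 was slightly higher, at 0.19 (0.15 to 0.22).

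In CEM the measurable effectors were higher. All 3 members with at least 50 counts, HES1, HES4 and DTX1, were at least 1.5-fold higher under shJMJD3 than under shRenilla. Among 16998 genes, 22.4% were that much higher and 23.9% lower. HES1 had 222 CPM under shJMJD3 against 98.6 under shRenilla and 94.9 under shUTX, a log2 ratio to shRenilla of 1.48 (1.45 to 1.52). DTX1 had 35.7 against 15.3 and 13.7 CPM, at 1.53 (1.44 to 1.62), and HES4 16.2 against 8.68 and 11.1 CPM, at 1.21 (1.09 to 1.34). For each of the 3 genes the shJMJD3 column was the highest of the line. The remaining 4 members had 27 counts or fewer in every CEM column and gave no reading.

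Under shUTX few members were apart from the control by 1.5-fold. In CUTLL1, against the smaller control column with which the authors paired it, only HEY2 of 7 members was at least 1.5-fold lower, at -0.68 (-1.22 to -0.19) on 47 against 111 counts, and 0 were higher. The background was 2.27% lower and 3.5% higher among 16886 genes. That call for HEY2 ended against the larger control (-0.29) and turned against the remainder (0.19), while HES1 was at 0.64 and 1.16 against these columns and HEY1 at 0.00 and 0.81. NRARP, at -0.54 and -1.03, was lower against both. HES5 (-0.55), DTX1 (-0.53), HEY1 (-0.48), NRARP (-0.47) and HES4 (-0.23) were lower by less than 1.5-fold, and HES1 was at 0.24 (0.20 to 0.28). The 7 ratios had a median of -0.48, against -0.01 over all genes measured, but that median was -0.29 against the larger control and turned to 0.19 against the remainder. In CEM, HES1 (-0.02), DTX1 (-0.12) and HES4 (0.38) all stayed within 1.5-fold, where 3.32% of 16791 genes were higher and 4.05% lower.

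The direct ratio of shJMJD3 to shUTX needs no control column. In CUTLL1, 4 of 7 members were at least 1.5-fold lower under shJMJD3 and 0 higher: HEY1 (-0.98, interval -1.14 to -0.83), HES5 (-0.81, -0.94 to -0.68), HES4 (-0.74, -0.76 to -0.72) and NRARP (-0.70, -0.74 to -0.67). The background was 10.2% lower and 17.3% higher among 18287 genes, with a median of -0.12. HES1 was at -0.46, HEY2 at -0.32 with an interval that includes 0 (-0.92 to 0.25), and DTX1 at -0.08 (-0.10 to -0.05). DTX1 thus had the smallest ratio between the CUTLL1 knockdowns. In CEM the 3 measured members were again higher under shJMJD3, DTX1 by 1.62, HES1 by 1.47 and HES4 by 0.80 on the log2 scale, beside 22.2% higher and 23.3% lower among 16229 genes. The comparisons of shJMJD3 share their shJMJD3 columns, so they are not independent of each other.

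**Figure D2:**
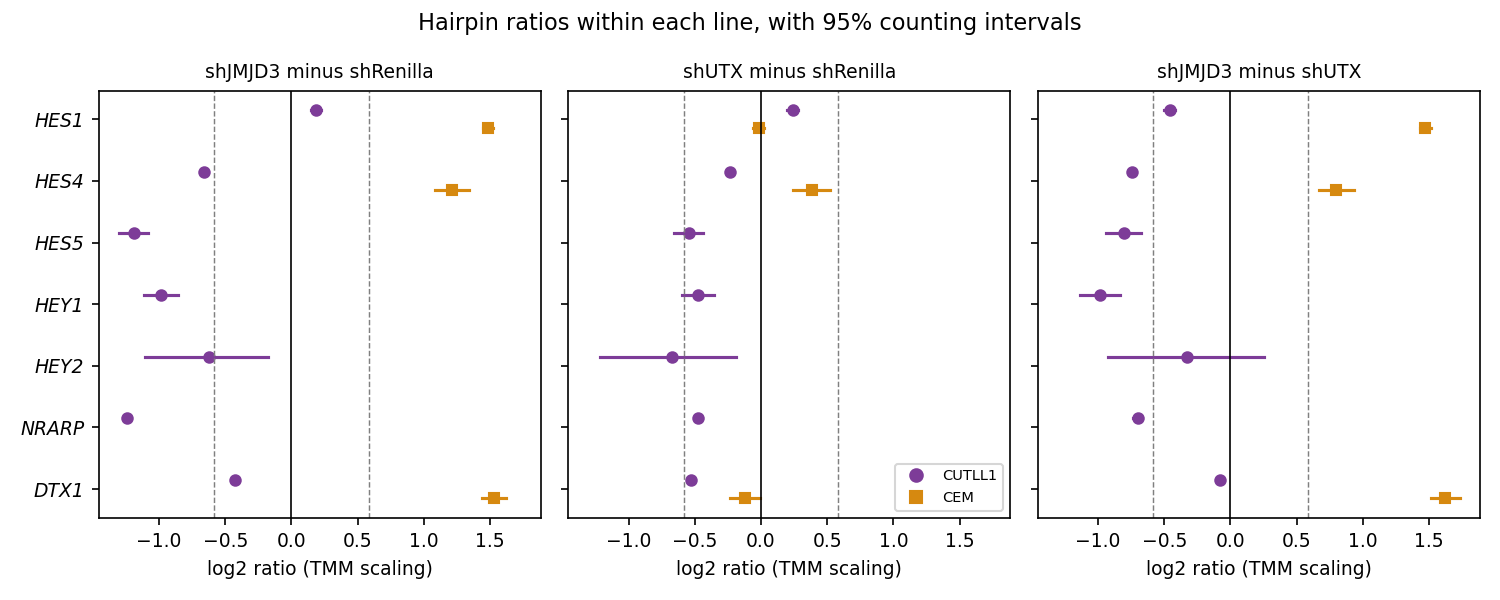
TMM-scaled log2 ratios of the members in each within-line comparison (circles CUTLL1, squares CEM), with 95% binomial counting intervals and dashed lines at 1.5-fold. Members under 50 counts in both columns are left out. In the panel of shJMJD3 minus shRenilla the CUTLL1 points run from -1.25 to 0.19 and the CEM points from 1.21 to 1.53.

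Treating the lines as the replicates, 0 genes passed an adjusted p of 0.05 in any of the 3 hairpin comparisons (edgeR quasi-likelihood test, line as block, 2 residual degrees of freedom). That is 0.0% of 24003 genes for shJMJD3 against shRenilla, 0.0% of 23112 for shUTX against shRenilla and 0.0% of 24003 for shJMJD3 against shUTX. At an unadjusted p under 0.05 there were 936, 39 and 1945 genes, none of them a member. DESeq2's Wald test called 95 higher and 20 lower, 0 higher and 1 lower, and 212 higher and 98 lower genes in the same comparisons. The smallest adjusted p of a member by edgeR was 0.80, 1 and 0.632. HES4 and DTX1 lay on opposite sides of 0 in the 2 lines under shJMJD3.

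The CUTLL1 control itself was not of one piece for these genes. HES1 had 76.0 CPM in the smaller control column and 27.2 in the remainder, HEY1 11.6 and 3.21 CPM, and HEY2 0.769 and 0.282 CPM. On the TMM scale these 3 members were at least 1.5-fold lower in the remainder (-0.94, -1.30 and -0.88), and HES4, with 379 and 174 CPM, was just inside at -0.58. Among 18546 genes, 17.9% were that much lower and 22.2% higher. NRARP stood out for its evenness by column totals, with 196.9 CPM in the smaller column and 196.5 in the remainder, although TMM scaling placed the remainder 0.54 higher on the log2 scale. HES5 (15.03 and 9.88 CPM) was at -0.06 and DTX1 (417 and 267 CPM) at -0.10 after TMM scaling. Between these parts the choice of scaling matters more than elsewhere, since column totals shift every ratio by -0.54. The smaller column had 81.8% of its counts in protein-coding genes and 1.97% in small RNA genes, the remainder 60.0% and 18.7%, shJMJD3 66.9% and 11.7%, and shUTX 79.0% and 2.58%. The part of this RNA content in the member ratios was not tested.

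Each CUTLL1 knockdown was therefore set against both parts. Under shJMJD3, HES4, HES5, NRARP and DTX1 lay below both the smaller column and the remainder, with counting intervals clear of both under all 3 scalings tried (TMM, column totals and protein-coding counts). Of 19772 genes, 10.1% met the same condition and 4.92% lay above both. NRARP had the widest margin by column totals, at 74.6 CPM against 196.5 in the nearer part. HES5, at 5.01 CPM, was likewise well under the 9.88 CPM of the remainder, whereas HES4 at 165 CPM was near the remainder's 174. HES1, HEY1 and HEY2 under shJMJD3 were not clear of both parts, and by column totals their values of 55.7, 3.59 and 0.321 CPM lay between them.

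Under shUTX, only NRARP was clearly below both parts under all 3 scalings, at 138 CPM. HES1, at 87.1 CPM, was above both. Of 19583 genes, 6.27% lay below both parts by this condition and 15.2% above. DTX1 and HES5 were below both by TMM and by protein-coding counts but not by column totals, and HES4, HEY1 and HEY2 were not clear of both parts under any of the scalings. NRARP was thus the only member below both control parts with both hairpins under all 3 scalings.

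**Figure D3:**
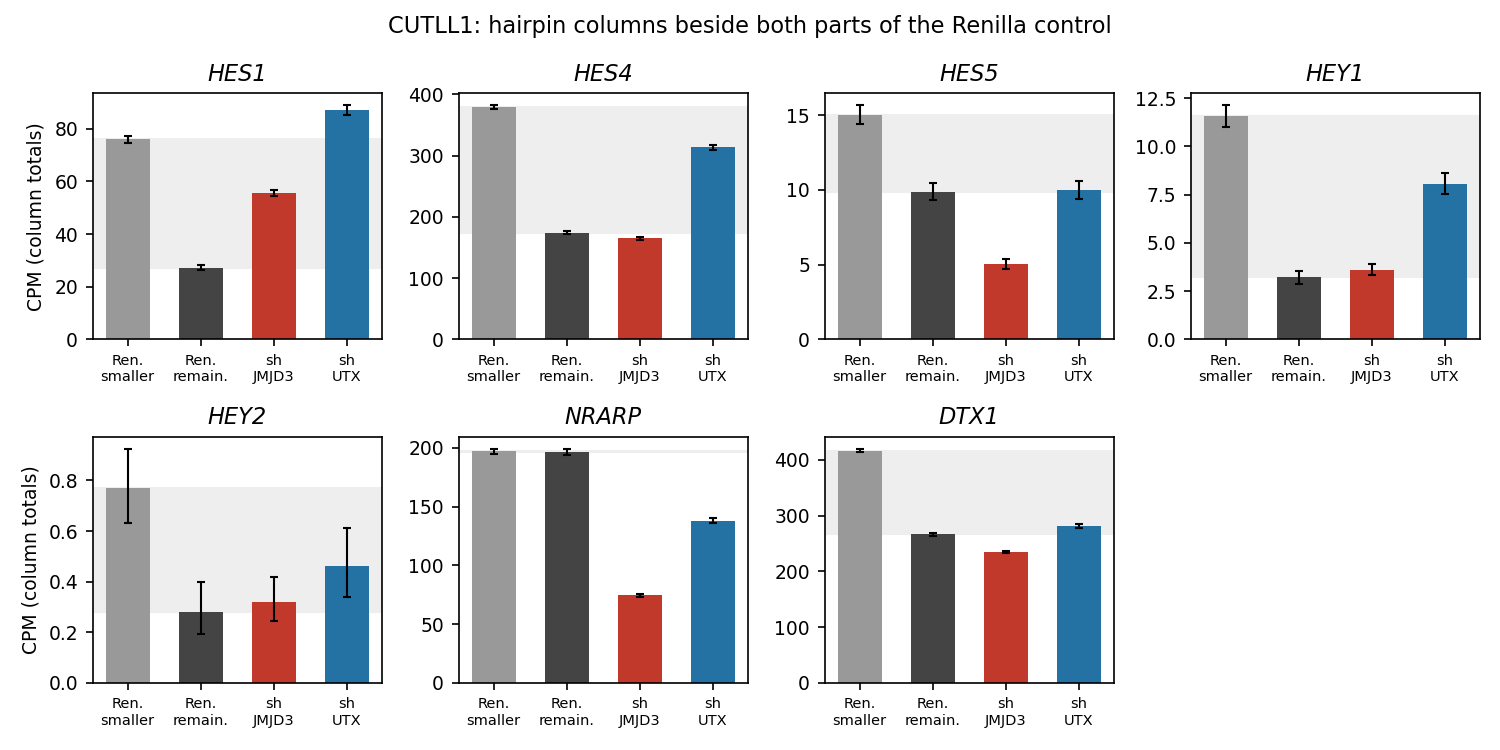
CPM of the column total (bars from 0, 1 panel per gene, with 95% Poisson intervals) in the smaller CUTLL1 control column, in the remainder of the control, and under shJMJD3 and shUTX. The grey band spans both control parts. The NRARP band is almost a line at 196.5 to 196.9 CPM with both knockdowns below it, while the HES1 band runs from 27.2 to 76.0 CPM.

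The gene whose pattern over the 6 columns was nearest to HES1 was RBPJ, the DNA-binding partner of NOTCH itself. Of 12057 protein-coding genes compared, RBPJ had the smallest root mean square difference from HES1 in centred TMM log2 CPM, 0.044 (Pearson r 0.998 over 6 columns that share 2 lines), followed by ZNF160 at 0.082 and C6orf57 at 0.095. RBPJ had 63.6, 99.6 and 66.0 CPM under shRenilla, shUTX and shJMJD3 in CUTLL1 and 121, 118 and 260 CPM in CEM. RBPJ remained in first place when each line was centred on its own mean, with a difference of 0.031. ZNF160 and C6orf57 then ranked 27 and 18 of 12056 genes. The measure was not rerun with another control column. The likeness did not extend to the separate control parts, which entered the measure only as their sum, the larger column. There RBPJ had a log2 ratio of 0.03 (-0.01 to 0.08), while HES1 had -0.94. These correlations describe 6 pooled columns and carry no test.

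**Figure D4:**
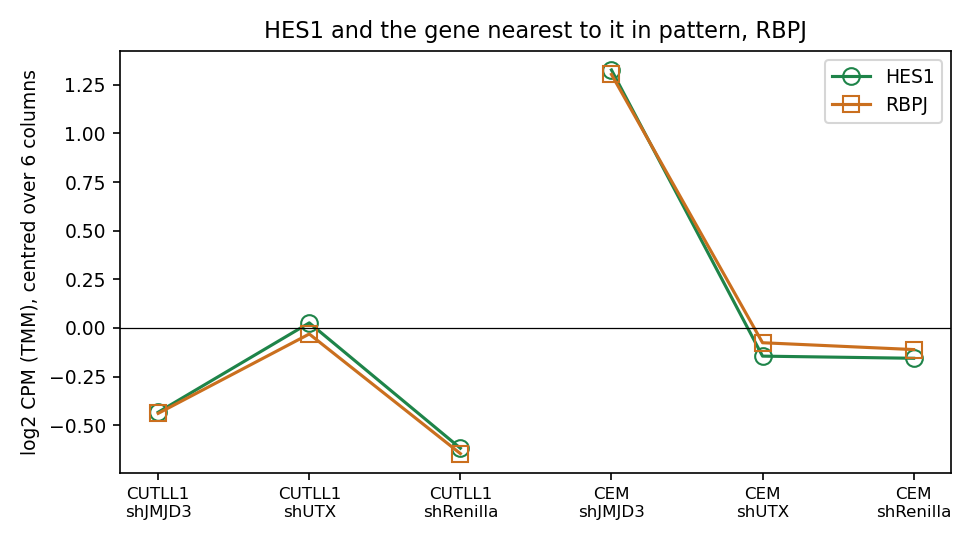
TMM log2 CPM of HES1 (circles) and RBPJ (squares), each centred on its own mean over the 6 columns, with lines joining the columns of a cell line. Both genes are highest in CEM shJMJD3, at 1.33 and 1.30, and lowest in CUTLL1 shRenilla, at -0.62 and -0.65.

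HES4 and DTX1 had looser neighbours. The nearest to HES4 were MAL (0.262), a T cell membrane protein, PRR5 (0.299) and SERPINB9 (0.326). The nearest to DTX1 were FAM59A (0.200), PRR5-ARHGAP8 (0.223) and ARHGAP8 (0.282), of which the last 2 overlap each other so that their reads cannot be told apart with certainty. With each line centred on its own mean, MAL, PRR5 and SERPINB9 ranked 154, 189 and 1682 of 12056 genes for HES4. FAM59A, PRR5-ARHGAP8 and ARHGAP8 then ranked 33, 91 and 106 for DTX1. The likeness over 6 columns thus includes the step between the lines. HES5, HEY1, HEY2 and NRARP had too few CEM counts to be ranked.

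Few other genes of the pathway were apart in one direction in both lines. Under shJMJD3 against shRenilla, LFNG, a glycosyltransferase that modifies NOTCH receptors, was the only gene of the 8 other lists at least 1.5-fold apart in one direction in both lines, at 0.78 in CUTLL1 on 97 against 92 counts and 1.13 in CEM on 66 against 54 counts. Of 15882 genes measured in both lines, 2.56% were higher in both and 2.47% lower. In CUTLL1, however, LFNG differed between the control parts by more than that, with 34 counts in the smaller column and 58 in the remainder, and against the remainder its shJMJD3 ratio was -0.07 (-0.55 to 0.43). Under shJMJD3 against shUTX, TLE1, a Groucho-type corepressor that HES proteins recruit, was lower in both lines (-0.72 and -0.85), as were 3.84% of 15113 genes. For shUTX against shRenilla no listed gene met this condition, beside 0.376% of 15153 genes higher and 0.165% lower in both.

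Beside the effectors, NOTCH1 under shJMJD3 had a log2 ratio to shRenilla of -0.60 in CUTLL1 (541 against 915 CPM) and -0.36 in CEM (284 against 453 CPM) where HES1, HES4 and DTX1 were higher. NOTCH3 had -0.11 and 0.72, and MYC -0.60 and -0.14. Against the remainder of the CUTLL1 control NOTCH1 was at -0.34 and MYC at -0.54, both within 1.5-fold. In CUTLL1 under shJMJD3, 1 of 4 receptors was at least 1.5-fold lower, and of 14 measured T cell targets 3 were lower and 1 higher. In CEM 6 of 15 of those targets were higher and 3 lower, and in the nuclear NOTCH complex 2 of 6 were higher and 4 lower. RBPJ was among those higher there, at 1.41. Over all genes measured under shJMJD3, 7.23% were lower and 8.63% higher in CUTLL1, and 23.9% lower and 22.4% higher in CEM. Under shUTX the lists gave at most 1 gene per direction, except that 4 of 15 T cell NOTCH targets were lower in CEM. In that comparison 4.05% of all genes measured were lower.

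The authors' deposited tables call a gene by their own DEGseq signature, from pooled reads. Of 55075 genes, it was set in CUTLL1 for 12769 (shJMJD3 against shRenilla), 7806 (shUTX against shRenilla) and 15399 (shJMJD3 against shUTX). In CEM the numbers were 14647, 6947 and 13643, in that order. Only 19772 of the 55075 had at least 50 counts in either column for shJMJD3 against shRenilla in CUTLL1, and 16998 in CEM. Calls among such genes alone were not counted, so these numbers are no background for genes read at that depth. In the authors' deposited table of shJMJD3 against shRenilla, 6 of 7 members carried the call in CUTLL1 (all but HES1) and 3 in CEM. The authors' deposited table of shUTX against shRenilla called 6 members in CUTLL1 (all but HEY2) and only HES4 in CEM. The authors' deposited table of shJMJD3 against shUTX called 6 in CUTLL1 (all but HEY2) and 3 in CEM. HEY2 in CUTLL1 shUTX, 1.5-fold lower by its point ratio, was thus not called in the authors' deposited table. Its DEGseq p-value there, on which the call rests, was 0.00202, and its q-value was 0.00698.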

How the data were processed

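RNA from 14 cell line samples was extracted with an RNeasy kit, selected as poly-A+ or Ribominus RNA, made into strand-specific dUTP libraries and sequenced as single reads on an Illumina instrument, per the labels' protocols. CASAVA, TopHat and hg19 are named in the submitters' processing notes. The sources used here give no counter, annotation or strand setting. The 6 deposited tables hold, per the file headers, whole-number counts per gene for a pair of pooled columns, and the authors' log2 fold changes, p-values and q-values from DEGseq. The authors' deposited score per gene, a z value, was not used. Value columns that match no group numbered 0. Of the 6 groups, 5 had identical columns in both of their tables.

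Levels were computed as CPM of column totals, with exact Poisson intervals, and per kilobase of GENCODE 29 exons. Ratios used TMM effective sizes, a prior count of 2 and exact binomial 95% intervals. A gene was read with at least 50 counts in either column and called at 1.5-fold. A count of 0 was taken to allow 3 counts. Intervals cover counting error only. Tests across the 6 columns used edgeR 4.0.16 (quasi-likelihood, filterByExpr, R 4.3.3), with DESeq2 1.42.0 as an alternative. The edgeR fit was run on simulated data in which hairpin effects were the same in both lines. That check does not cover hairpin ratios that differ between the lines, as they do here. The edgeR test reports no SE. Each SE given is the absolute log2 difference divided by the square root of the F value, and so is approximate. Since no replicate is separable, the spread behind the p-values is how far the hairpin ratios differ between the lines. It does not cover variation between cultures. For shJMJD3 against shRenilla or shUTX and between lines the larger CUTLL1 control entered, for shUTX against shRenilla the smaller.

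Named genes were all members, KDM6B and KDM6A, NOTCH1, NOTCH3, RBPJ and MYC, genes of the pathway lists called one way in CUTLL1 and CEM alike, and the 3 protein-coding genes nearest in pattern to each member with at least 50 counts in a column of each line. The members and lists were chosen with earlier results of these data known. Alternatives were the scaling, the filter, the prior count (0.5), the minimum (10 counts), the control column and the test. Scaling to protein-coding counts was chosen after seeing the data.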

Additional observations from a re-analysis of the deposited data

Results flagged for a closer look

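In 6 comparisons a member had a ratio on one side of 0 in CUTLL1 and on the other in CEM with both counting intervals clear of 0, and the difference between the lines was not tested, because each line gives 1 pooled column per hairpin. For shJMJD3 against shRenilla, HES4 had a log2 ratio of -0.66 in CUTLL1 and 1.21 in CEM, a difference of -1.87, and DTX1 one of -0.43 and 1.53, a difference of -1.96. For shJMJD3 against shUTX, HES1 differed by -1.93 (-0.46 and 1.47), HES4 by -1.54 (-0.74 and 0.80) and DTX1 by -1.70 (-0.08 and 1.62). For shUTX against shRenilla, HES4 differed by -0.62 (-0.23 and 0.38), and its CUTLL1 ratio turned to 0.08 against the larger control column. The comparisons share columns, so these 6 values are not independent. Only HES1, HES4 and DTX1 were measured in both lines. This check was not run over all genes, so no background share stands beside the 6 cases.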

How the results depend on the processing

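No paired analysis was possible because the deposited columns pool the replicates and carry no replicate numbers, and leaving out replicates was not run for the same reason. Of 196 alternative member values from the models across lines (edgeR or DESeq2), 180 kept their direction and their side of the threshold, and 16 turned sign without passing it. For shJMJD3 against shRenilla these were HES5 (0.46 with DESeq2), HEY1 (-0.045 with column totals, -0.0052 with protein-coding counts, -0.0049 with the smaller control) and HEY2 (-0.11, -0.031 and -0.10 likewise). For shJMJD3 against shUTX they were HES4 (-0.11 with column totals, -0.0098 with protein-coding counts) and HES5 (0.75 with DESeq2, 0.026 with the smaller control, 0.15 with the remainder). For shUTX against shRenilla they were HES4 (-0.016 without the filter, -0.027 with column totals), HEY1 (0.13 with the remainder) and NRARP (0.027 with DESeq2). Within a line 31 of 37 ratios kept their sign under every alternative. The others were HES1 under shJMJD3 in CUTLL1 (-0.07 against the smaller control), HES4, HEY1 and HEY2 under shUTX in CUTLL1 (0.33, 0.81 and 0.19 against the remainder), HES1 under shUTX in CEM (0.01 with DESeq2 size factors) and NRARP between control parts with column totals.

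Counts of members at least 1.5-fold apart depended on the CUTLL1 control. Against the remainder, shJMJD3 gave 1 higher and 2 lower and shUTX 2 higher and 1 lower (NRARP, in place of HEY2); against the larger column shUTX gave 1 higher and 0 lower. With column totals shUTX in CUTLL1 gave 2 lower and the control parts 6 lower. A minimum of 10 counts added 1 higher member for shUTX and 1 lower for shJMJD3 against shUTX in CEM.

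Counts over all genes moved more. For shJMJD3 against shRenilla in CUTLL1 they became 2331 lower with column totals, 3198 higher and 3347 lower with 10 counts, 3585 and 879 with the smaller control, and 3164 and 3950 with the remainder. In CEM they became 2360 higher and 6210 lower with column totals and 2292 and 6365 with protein-coding counts. For shUTX in CUTLL1 they became 1827 and 1438 with 10 counts, 2004 and 3141 with the larger control, and 3658 and 4545 with the remainder, and in CEM 1331 and 2109 with 10 counts. For shJMJD3 against shUTX in CUTLL1 they became 3892 lower with column totals, and 5147 higher and 3435 lower with 10 counts. Between control parts, 9456 were lower with column totals and 6759 higher with 10 counts. The counts these replace were, higher and lower, 1707 and 1430 (shJMJD3, CUTLL1), 3803 and 4068 (shJMJD3, CEM), 591 and 383 (shUTX, CUTLL1), 558 and 680 (shUTX, CEM), 3156 and 1869 (shJMJD3 against shUTX, CUTLL1), and 4116 and 3320 (control parts).

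Across lines, DESeq2 called 95 higher and 20 lower genes for shJMJD3 against shRenilla, 1 lower for shUTX against shRenilla, and 212 higher and 98 lower for shJMJD3 against shUTX. For the last, edgeR called 6 higher with column totals and 55 without the filter, and with the remainder 2738 genes, not 4276, were lower in CUTLL1 than in CEM. The causes were not tested. Depth limits HES5, HEY1, HEY2 and NRARP in CEM, at 27 counts or fewer per column.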
